A study of Rattus norvegicus with 11 samples.

Results

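The 10 genes described here encode the 5 subunits of the transcription factor NF-κB (Nfkb1, Nfkb2, Rel, Rela and Relb) and 5 proteins that NF-κB induces and that act back on its own signalling (Nfkbia, Nfkbiz, Bcl3, Tnfaip3 and Birc3). They were chosen by symbol out of 24481 genes with read counts, and all 10 were among the 24205 genes with a length-scaled level. Ileum RNA of Sprague Dawley (SD) rats 6 to 8 weeks old was sequenced in 3 groups. Rats of the SAP group had severe acute pancreatitis (SAP), raised by putting 3% sodium taurocholate into the pancreatic duct, and then received vehicle. Rats of the JZL184 group had SAP and received JZL184, an inhibitor of monoacylglycerol lipase, the enzyme that breaks down the endocannabinoid 2-AG, at 10 mg/kg into the peritoneum. Rats of the control group had no SAP and received vehicle. Treatment was given 24 h after surgery and tissue was taken 24 h later. The labels call the control treatment a control plasmid and name the SAP libraries oil, no source used here says clearly what surgery the control rats had, and no group received JZL184 without SAP. There were 3 control, 4 SAP and 4 JZL184 libraries. Control libraries 1 and 2 were far closer to each other than any other libraries of 1 group, with a chi-square per gene of 2.81 against 77.48 to 563.03, so they were counted as 1 sample and the control group has n = 2. The labels number the libraries within a group but do not say that each came from a separate rat, so p-values measure only the spread between these samples, which may be technical.

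NF-κB is a family of dimers built from the 5 subunits. In resting cells inhibitor proteins of the IκB family hold the dimers in the cytoplasm. Cytokines, microbial products and tissue injury activate the IκB kinase complex, the inhibitor is degraded, and the dimer enters the nucleus and binds short DNA elements called κB sites. Nfkbia and Tnfaip3 are among the genes it then induces, and their products shut the signal down again. In the intestine the pathway drives cytokine and chemokine genes and also keeps epithelial cells alive.

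The promoters are shown first because κB sites are the sequences that NF-κB binds, and several of these genes are known targets of the factor. RefSeq promoters of build GRCr8 (250 bases before to 50 bases after the start of a gene, 300 bases in all) were found for 8 of the 10 genes, without Relb and Birc3. The windows below run 5′ to 3′ on the gene's own strand, with the site shown in capitals and overlapping matches to the κB consensus joined. Not every site is shown. Tnfaip3 had 3 sites, with the others at 170 and 55 bases before the start, and Rel had 2, with the other at 219 bases. The Tnfaip3 site at 55 bases begins within the lower-case letters printed for that gene. The sequences are of another build than the deposited alignments, and only the letters and their distance from the start are used here.
Nfkb1 (chr2:226805440-226805469, minus strand, first capital 4 bases after the start): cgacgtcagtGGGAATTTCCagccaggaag
Nfkbiz (chr11:58251698-58251727, plus strand, 13 bases before the start): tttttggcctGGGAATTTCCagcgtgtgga
Nfkbia (chr6:78597084-78597113, minus strand, 31 bases before the start): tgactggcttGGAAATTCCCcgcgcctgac
Nfkb2 (chr1:255108344-255108373, plus strand, 20 bases before the start): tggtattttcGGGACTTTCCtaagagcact
Tnfaip3 (chr1:15544027-15544056, minus strand, 67 bases before the start): tcacgtgactGGAAAGTCCCtcggaaatcc
Bcl3 (chr1:88613574-88613603, minus strand, 38 bases before the start): tcggcggcagGGGAAGTCCCgcagcccggc
Rel (chr14:101922001-101922029, minus strand, 82 bases before the start): gtaggcagcGGGAAATCCCCccccgttcc

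Read from its run of 3 G, the site of Nfkbia on the opposite strand has the same letters, GGGAATTTCC, as those of Nfkb1 and Nfkbiz. Nfkb2 and Tnfaip3 share GGGACTTTCC in the same way. Of all 27457 promoters, 22 (0.0801%) held GGGAATTTCC on either strand and 26 (0.0947%) held GGGACTTTCC. The κB consensus itself, which both are special cases of, begins with GGG and ends with CC on 1 of the strands and was found on either strand in 7 of the 8 promoters (87.5%) against 2087 of 27457 (7.6%). The 10 genes were chosen as subunits and induced genes of NF-κB. Of the pathway lists described below, target genes had it in 10 of 24 promoters (41.7%). Other inhibitors had it in 3 of 11 (27.3%), and kinases and adaptors in 4 of 22 (18.2%). Rela was the gene without a match, which says only that these letters are not in its 300 bases. A match is a description of the sequence and was not measured as binding.

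Each library held 26341299 to 33847135 reads on genes. SAP libraries 1 and 2 resembled each other (chi-square per gene 85.46), as did SAP 3 and 4 (99.08), whereas pairs across these gave 337.01 to 563.03, so values are given per library and with either pair of SAP libraries where it matters. The study used male rats, and 1 library, SAP 2, had 28 reads on 4 Y-linked genes where the other libraries had 1224 to 4668. The labels name the cells as intestinal epithelial, but the source was ileum tissue. Summed over marker genes, epithelium gave the highest levels in every library, and markers of smooth muscle and of immune cells were also present. In such bulk tissue, fewer cells of a type and less RNA per cell cannot be told apart. Levels are given as FPKM, sequenced fragments scaled to the length of the gene and to the mapped fragments of the library, as mean ± SD over samples. Differences come from edgeR's quasi-likelihood test on the read counts, adjusted over all genes tested by Benjamini and Hochberg's method, and a gene is called changed when its adjusted p is under 0.05 and its level more than doubled or fell under a fold of 0.5.

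Among the 10 genes, 4 of the 5 feedback genes had the largest differences between JZL184 and SAP. The other, Nfkbiz (log2 0.88), came behind the subunits Rel (1.35) and Nfkb2 (0.94). Nfkbia, Tnfaip3, Bcl3 and Birc3 were 3.35-fold to 6.09-fold higher in JZL184 than in SAP, and all 4 JZL184 libraries lay above all 4 SAP libraries for each of them. By edgeR 0 of the 10 genes was called, as was 0% of the 15308 genes tested. The adjusted p-values of these 4 genes lay between 0.0604 and 0.0851, and 0.0604 was the smallest of any gene. By DESeq2 on the same counts 5 genes were called higher, these 4 and Rel, beside 3.57% of all genes called higher, and by limma-voom with sample weights the 4 feedback genes were called, beside 2.18%. The unadjusted edgeR p was under 0.05 and the difference upward for 6 of 10 genes, against 10.3% of all genes. The same 6 genes (Nfkb2, Rel, Nfkbia, Bcl3, Tnfaip3 and Birc3) did not overlap between the groups in CPM (read counts scaled to the size of the library), which held for 6.23% of all genes in that direction. The median difference of the 10 genes was 1.15 on the log2 scale, beside -0.05 for all genes, and 9 of the 10 were higher, as were 47.4% of all genes.

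JZL184 against control gave the largest difference of any of the 10 genes. Tnfaip3 rose 11.8-fold and was the 1 gene of the 10 called by edgeR, beside 2.16% of the 15916 genes tested (1.02% higher). DESeq2 called 5 genes higher (Rel, Nfkbia, Nfkbiz, Tnfaip3 and Birc3) beside 5.81% of all genes, and limma-voom called these and Bcl3, beside 8.48%. The unadjusted p was under 0.05 with a higher level for 7 genes, where 13.8% of all genes were higher at that threshold. In CPM 7 genes lay wholly above the control samples, beside 18.9% of all genes, and Relb lay wholly below, beside 19.3%. For Relb the gap was very narrow. Scaled over all libraries, control 3 and JZL184 4 both had a log2 CPM of 6.054. The median difference was 1.07 on the log2 scale, beside 0.08 for all genes, and 9 of the 10 were higher, as were 54% of all genes.

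SAP against control showed no such shift. Of the 10 genes 4 were higher and 6 lower, where 53.2% and 46.8% of all genes were, with a median of -0.29 on the log2 scale beside 0.06 for all genes. By edgeR 0 of 10 was called, as was 0% of the 16029 genes tested, and 0 of 10 had an unadjusted p under 0.05, beside 9.09% of all genes. DESeq2 also called 0 of 10 (1.23% of all genes), as did limma-voom (0.0873%). Relb, Bcl3 and Birc3 lay wholly below the control samples in CPM, as did 11.9% of all genes. This comparison and the one of JZL184 against control share the control samples, and both comparisons of SAP share the SAP libraries, so they are not independent of each other.

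**Figure D1:**
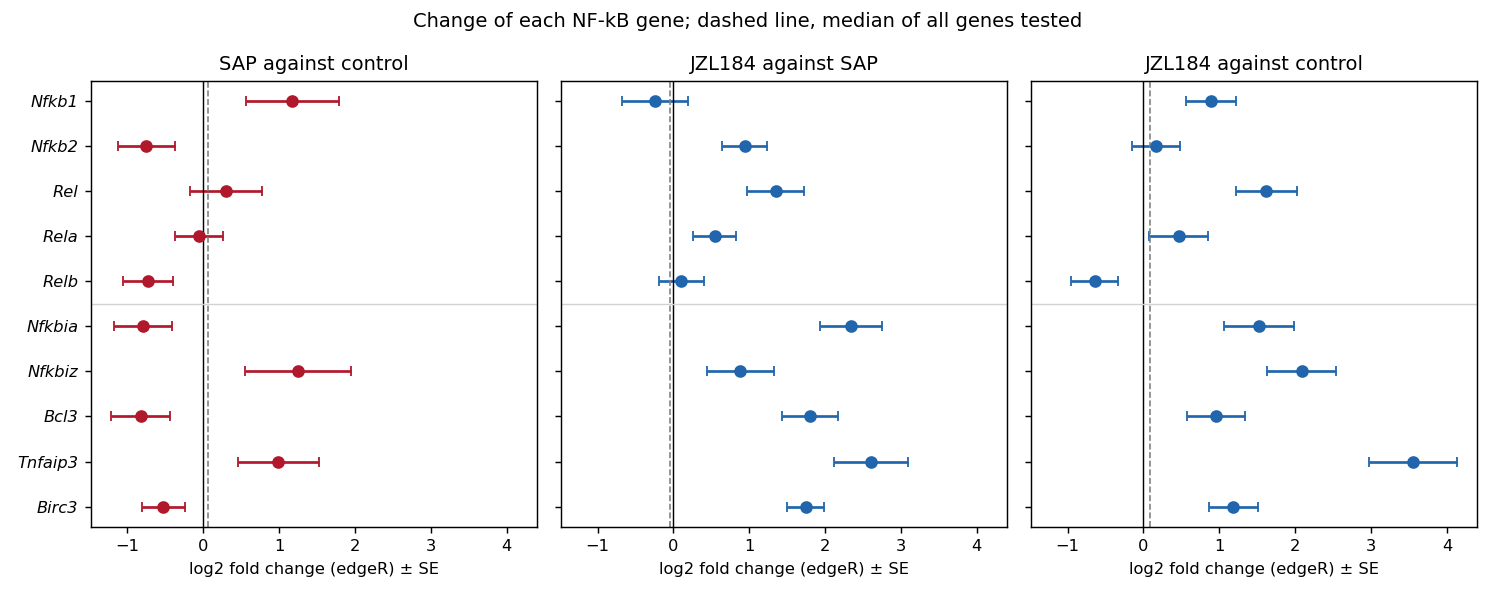
Difference of each gene in the 3 comparisons, as log2 fold change by edgeR with its standard error, the dashed line marking the median of all genes tested. For JZL184 against SAP, Nfkbia, Bcl3, Tnfaip3 and Birc3 lie between 1.74 and 2.61, Rel at 1.35, Nfkb2 at 0.94 and Nfkbiz at 0.88, and Nfkb1, Rela and Relb between -0.24 and 0.55.

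Nfkbia encodes IκBα, the inhibitor that is degraded on activation and then made again under NF-κB control. It was the most abundant of the 10 transcripts per length in every library. Its level was 112.81, 110.06 and 165.20 FPKM in control libraries 1 to 3, and 81.53, 59.11, 88.72 and 121.10 FPKM in SAP 1 to 4. In JZL184 1 to 4 it was 203.98, 333.61, 573.44 and 508.21 FPKM. The lowest JZL184 library thus stood above every control and every SAP library, while SAP 4 lay between the control values. The means were 138 ± 38.0 (n = 2), 87.6 ± 25.6 (n = 4) and 405 ± 168 FPKM (n = 4). Nfkbia was 5.07-fold higher in JZL184 than in SAP (log2 2.34, SE 0.41, edgeR adjusted p = 0.0693, DESeq2 adjusted p = 1.36e-05). Against control it was 2.88-fold higher (log2 1.52, SE 0.46, edgeR adjusted p = 0.0968, DESeq2 adjusted p = 0.0186). Its log2 difference in SAP against control was -0.79 (SE 0.38, edgeR adjusted p = 0.459).

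Tnfaip3 encodes a ubiquitin-editing enzyme that switches off signalling upstream of the IκB kinase complex. Its level was low in control tissue, at 0.82, 0.78 and 1.25 FPKM. SAP 1 to 4 had 4.15, 2.63, 1.41 and 1.09 FPKM, and JZL184 1 to 4 had 5.87, 7.88, 19.09 and 16.37 FPKM. All JZL184 libraries were above all others, with JZL184 3 and 4 well above JZL184 1 and 2, and SAP 4 lay between the control values. The means were 1.02 ± 0.318 (n = 2), 2.32 ± 1.39 (n = 4) and 12.3 ± 6.42 FPKM (n = 4). For JZL184 against control the lowest adjusted p over the alternatives was 5.16e-15, from DESeq2 with control libraries 1 and 2 as separate samples. In edgeR with these libraries as 1 sample the lowest was 0.00292, without a filter on low counts. In the main fit the rise of JZL184 over control was 3.56 on the log2 scale (SE 0.58, edgeR adjusted p = 0.0279). That call was lost without the sample of control libraries 1 and 2 (adjusted p = 0.47), without control 3 (0.177), without JZL184 2 (0.0651), without JZL184 4 (0.0623) and with the replicate block and gene length offsets (0.0977), at log2 differences of 3.31, 3.83, 3.69, 3.37 and 2.96. Tnfaip3 was 6.09-fold higher in JZL184 than in SAP (log2 2.61, SE 0.49, edgeR adjusted p = 0.0817, DESeq2 adjusted p = 4.78e-05). The log2 difference of SAP from control was 0.99 (SE 0.53, adjusted p = 0.46).

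Birc3 encodes a ubiquitin ligase of the inhibitor of apoptosis family that works at the TNF receptor and also restrains the kinase of the alternative NF-κB pathway. It had the smallest p of the 10 genes for JZL184 against SAP and little spread within SAP. The control libraries had 7.65, 8.11 and 12.43 FPKM, SAP 1 to 4 had 8.48, 7.95, 6.62 and 8.27 FPKM, and JZL184 1 to 4 had 20.72, 16.89, 31.07 and 25.96 FPKM. Every JZL184 library was thus above every other library. The means were 10.2 ± 3.22 (n = 2), 7.83 ± 0.836 (n = 4) and 23.7 ± 6.18 FPKM (n = 4). Birc3 was 3.35-fold higher in JZL184 than in SAP (log2 1.74, SE 0.25, edgeR adjusted p = 0.0604, DESeq2 adjusted p = 2.44e-07). It was 2.27-fold higher than in control (log2 1.18, SE 0.33, edgeR adjusted p = 0.0821, DESeq2 adjusted p = 0.0293). Between SAP and control the log2 difference was -0.53 (SE 0.29, adjusted p = 0.46). SAP lay below control in CPM, but in FPKM SAP 1, 2 and 4 were above the mean of control libraries 1 and 2, which was 7.88.

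Bcl3 encodes a nuclear IκB protein that binds dimers of the subunits without a transactivation domain and can turn them into activators. The control libraries were close together at 15.22, 15.55 and 15.24 FPKM. SAP 1 to 4 had 9.99, 5.5, 10.94 and 11.92 FPKM, and JZL184 1 to 4 had 20.99, 29.08, 25.29 and 44.79 FPKM. The 3 groups did not overlap, with SAP below control and JZL184 above it. The means were 15.3 ± 0.103 (n = 2), 9.59 ± 2.84 (n = 4) and 30.0 ± 10.4 FPKM (n = 4). Bcl3 was 3.49-fold higher in JZL184 than in SAP (log2 1.80, SE 0.37, edgeR adjusted p = 0.0851, DESeq2 adjusted p = 0.000864). Against control it was 1.94-fold higher (log2 0.95, SE 0.38, edgeR adjusted p = 0.163, DESeq2 adjusted p = 0.153). SAP differed from control by -0.83 on the log2 scale (SE 0.39, adjusted p = 0.459).

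Nfkbiz encodes IκBζ, a nuclear IκB protein induced early and needed for a second set of target genes. Its higher SAP values lay in SAP 1 and 2, as those of Tnfaip3 did. The control libraries had 1.0, 0.91 and 2.67 FPKM, SAP 1 to 4 had 8.55, 6.86, 2.04 and 2.07 FPKM, and JZL184 1 to 4 had 5.85, 6.45, 9.67 and 8.95 FPKM. SAP 1 and 2 were at the level of JZL184, while SAP 3 and 4 lay between the control values. The means were 1.81 ± 1.21 (n = 2), 4.88 ± 3.33 (n = 4) and 7.73 ± 1.86 FPKM (n = 4). Nfkbiz was 4.24-fold higher in JZL184 than in control (log2 2.08, SE 0.45, edgeR adjusted p = 0.0553, DESeq2 adjusted p = 0.000415). Against SAP the log2 difference was 0.88 (SE 0.44, adjusted p = 0.271), and 1.96 with SAP 3 and 4 alone. For SAP against control it was 1.24 (SE 0.70, adjusted p = 0.461).

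Set against the control mean, all 5 feedback genes were higher in each JZL184 library. Their median ratio of FPKM to the control mean was 2.04, 2.41, 4.15 and 3.67 in JZL184 1 to 4. In each SAP library 2 of the 5, Nfkbiz and Tnfaip3, were above the control mean and the other 3 below, and the median ratio was 0.835, 0.783, 0.714 and 0.876 in SAP 1 to 4.

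**Figure D2:**
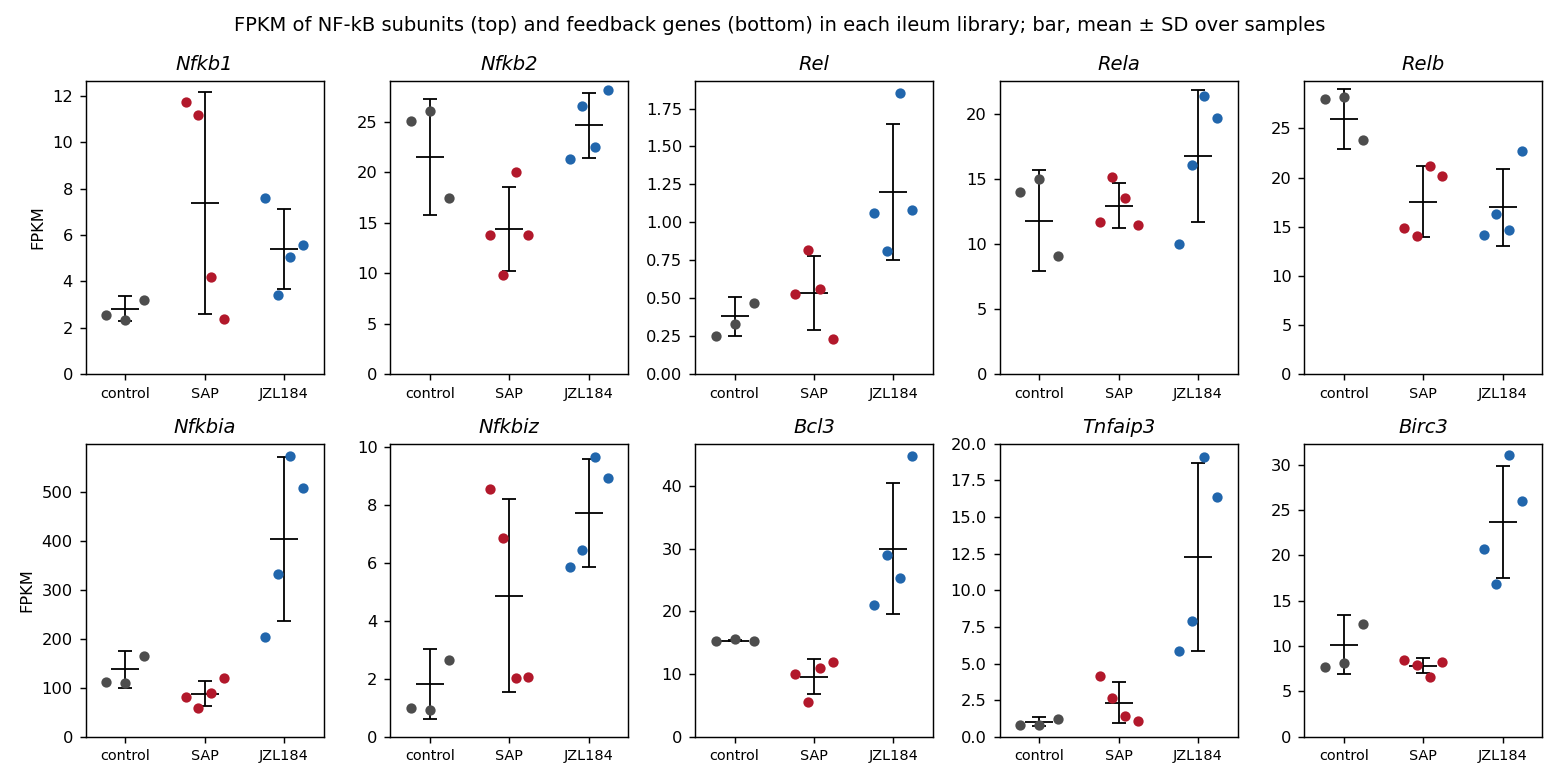
Level of the 10 genes in each library in FPKM, with the mean of each group's samples as a bar and its SD. Nfkbia, Tnfaip3, Birc3 and Bcl3 are higher in all 4 JZL184 libraries than in any other library, whereas Nfkb1 and Nfkbiz are high in SAP 1 and 2.

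The subunits did not differ in 1 direction. For JZL184 against SAP their median log2 difference was 0.55 against 1.8 for the feedback genes, though Rel and Nfkb2 were above the feedback gene Nfkbiz. By edgeR 0 of the 5 was called in any of the 3 comparisons, and Rel was the 1 subunit called by DESeq2.

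Rel encodes c-Rel, a subunit with a transactivation domain that is abundant in lymphoid cells. It was the scarcest of the 10 transcripts per length, with 57 to 437 reads a library. The control libraries had 0.25, 0.33 and 0.47 FPKM, SAP 1 to 4 had 0.53, 0.82, 0.56 and 0.23 FPKM, and JZL184 1 to 4 had 1.06, 0.81, 1.85 and 1.08 FPKM. Of the JZL184 libraries, JZL184 2 was within 0.01 FPKM of SAP 2 and the others stood above all SAP and control libraries. In CPM all 4 were above SAP. Rel was 2.55-fold higher in JZL184 than in SAP (log2 1.35, SE 0.38, edgeR adjusted p = 0.116, DESeq2 adjusted p = 0.0192). It was 3.07-fold higher than in control (log2 1.62, SE 0.40, edgeR adjusted p = 0.0684, DESeq2 adjusted p = 0.00647). The log2 difference of Rel in SAP against control was 0.30 (SE 0.48, adjusted p = 0.746), and its sign turned with gene length offsets (-0.20) and with SAP 3 and 4 alone (-0.03).

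Nfkb2 encodes the precursor whose processing releases the DNA-binding subunit of the alternative pathway. The control libraries had 25.08, 26.03 and 17.41 FPKM, SAP 1 to 4 had 13.82, 9.83, 19.99 and 13.82 FPKM, and JZL184 1 to 4 had 21.33, 26.61, 22.49 and 28.12 FPKM. All JZL184 libraries were above all SAP libraries and around the control values, and SAP 3 lay between the control samples. Nfkb2 was 1.92-fold higher in JZL184 than in SAP (log2 0.94, SE 0.30, edgeR adjusted p = 0.141, DESeq2 adjusted p = 0.0611). The log2 difference was -0.75 (SE 0.37, adjusted p = 0.459) for SAP against control and 0.16 (SE 0.32, adjusted p = 0.773) for JZL184 against control.

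Nfkb1 encodes the precursor of the DNA-binding subunit of the classical dimer. Its SAP libraries ranged from 2.37 to 11.72 FPKM. The control libraries had 2.54, 2.32 and 3.20 FPKM, SAP 1 to 4 had 11.72, 11.17, 4.18 and 2.37 FPKM, and JZL184 1 to 4 had 7.58, 3.42, 5.04 and 5.57 FPKM. SAP 1 and 2 were above every JZL184 library, SAP 3 was within the JZL184 range and SAP 4 below it. For SAP against control the log2 difference was 1.17 (SE 0.62, adjusted p = 0.459), and it was 1.74 with SAP 1 and 2 alone and 0.14 with SAP 3 and 4 alone. Against control JZL184 was 1.86-fold higher (log2 0.89, SE 0.33, adjusted p = 0.138). Against SAP the log2 difference was -0.24 (SE 0.44, adjusted p = 0.761).

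Rela encodes the transactivating subunit of the classical dimer. Its level was 14.05, 15.04 and 9.08 FPKM in control, 11.73, 15.14, 13.54 and 11.47 FPKM in SAP 1 to 4, and 9.99, 16.06, 21.44 and 19.70 FPKM in JZL184 1 to 4. The groups overlapped in each comparison, and JZL184 1 stood apart from the other JZL184 libraries. The log2 difference was 0.55 (SE 0.28, adjusted p = 0.284) for JZL184 against SAP, 0.46 (SE 0.39, adjusted p = 0.476) against control, and -0.06 (SE 0.32, adjusted p = 0.933) for SAP against control.

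Relb encodes the partner of the processed Nfkb2 product in the alternative pathway. Its level was 28.01, 28.24 and 23.78 FPKM in control, 14.83, 14.10, 21.14 and 20.11 FPKM in SAP 1 to 4, and 14.18, 16.31, 14.69 and 22.72 FPKM in JZL184 1 to 4. All 8 libraries of rats with SAP were below all 3 control libraries, and the SAP and JZL184 ranges overlapped. The log2 difference was -0.72 (SE 0.33, adjusted p = 0.459) for SAP against control, -0.64 (SE 0.31, adjusted p = 0.228) for JZL184 against control, and 0.11 (SE 0.29, adjusted p = 0.847) for JZL184 against SAP. Relb was the 1 gene of the 10 with a lower level in JZL184 than in control.

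**Figure D3:**
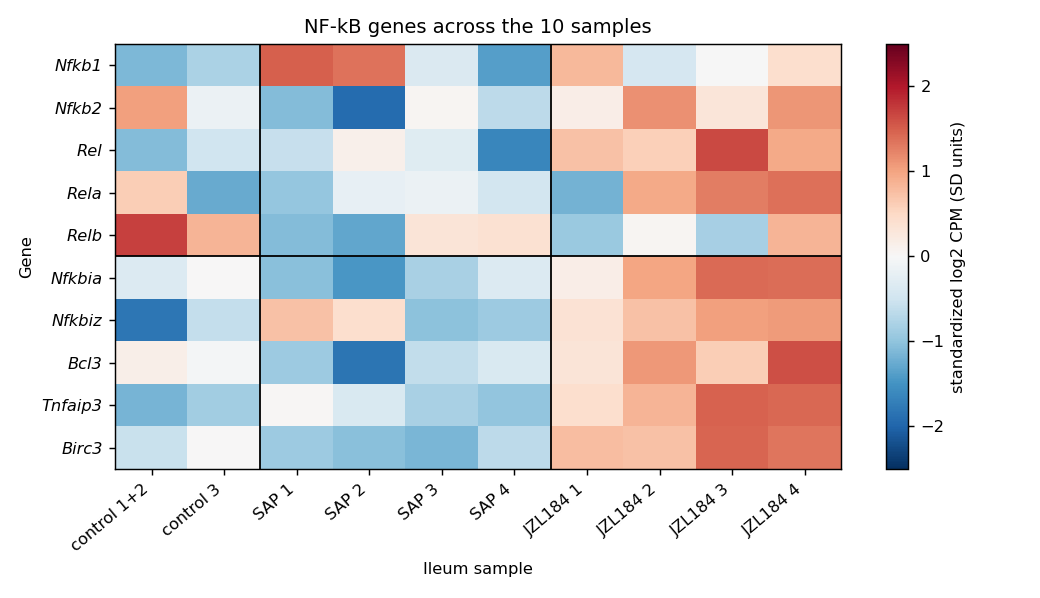
Standardized log2 CPM of each gene over the 10 samples, control libraries 1 and 2 being 1 sample, in units of that gene's SD. Nfkbia, Tnfaip3, Birc3 and Bcl3 are highest in the JZL184 columns, Nfkb1 in SAP 1 and 2, and Relb in the control columns, with JZL184 4 almost level with control 3 (0.8411 and 0.8418).

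Across the 10 samples, the profile of Nfkbia was nearest to that of Birc3, with a root mean square difference of standardized log2 CPM of 0.291, followed by Nfkbia with Bcl3 at 0.34. A subunit and a feedback gene, Nfkb2 and Bcl3, came next at 0.42. The most unlike profiles were those of Nfkb1 and Relb, at 1.79, and of Relb and Nfkbiz, at 1.72. The feedback genes lay 0.254 (Birc3) to 0.693 (Nfkbiz) from the mean profile of their 5, and the subunits 0.544 (Rela) to 1.34 (Nfkb1) from that of theirs, in the same unit. These likenesses share the group differences described above and are given without a test.

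The order of levels per length, in mean FPKM, ran in control from Nfkbia over Relb, Nfkb2, Bcl3, Rela, Birc3, Nfkb1, Nfkbiz and Tnfaip3 down to Rel. The ratio of the highest to the lowest was 364 in control, 164 in SAP and 337 in JZL184. Nfkbia was above all other genes and Rel below all of them in every sample of each group. Of the neighbours between these in control, Relb and Nfkb2, Rela and Birc3, Nfkb1 and Nfkbiz, and Nfkbiz and Tnfaip3 overlapped in their ranges. In SAP the order was the same except that Rela stood above Bcl3, and all neighbours between Nfkbia and Rel overlapped. In JZL184 Bcl3 was second at 30.0 ± 10.4 FPKM, followed by Nfkb2 at 24.6 ± 3.24, Birc3 at 23.7 ± 6.18, Relb at 17.0 ± 3.94, Rela at 16.8 ± 5.06, Tnfaip3 at 12.3 ± 6.42, Nfkbiz at 7.73 ± 1.86 and Nfkb1 at 5.40 ± 1.72 (n = 4 each), and each of these overlapped with its neighbours.

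The comparisons of SAP changed with the SAP libraries used. The pairs were formed because their libraries were alike in these same counts, so the spread within a pair is small by choice. Calls with a pair alone are therefore not a test of the group. With SAP 1 and 2 alone, edgeR called 7 of the 10 genes in SAP against control, beside 37.2% of all genes. Nfkb1, Nfkbiz and Tnfaip3 were higher, by 1.74, 1.83 and 1.46 on the log2 scale, and Nfkb2, Relb, Nfkbia and Bcl3 lower, at -1.16, -1.14, -1.26 and -1.27. With SAP 3 and 4 alone 0 of 10 was called, beside 0.482% of all genes. The log2 differences of Nfkb1, Nfkbiz and Tnfaip3 were then 0.14, 0.15 and 0.23. With offsets for gene length over all 4 SAP libraries their differences were 0.90, 0.99 and 0.47. These 3 genes are longer than the median gene, as are Nfkb2, Rel and Birc3, whose differences with the offsets were -0.93, -0.20 and -0.76. For JZL184 against SAP, Nfkbia, Tnfaip3, Birc3, Bcl3 and Rel kept their direction with either pair, with log2 differences of 1.99, 3.34, 1.70, 1.46 and 1.66 with SAP 3 and 4 alone and 2.80, 2.12, 1.78, 2.24 and 1.09 with SAP 1 and 2 alone. Without SAP 2, the library with few Y-linked reads, the first 4 of these were 2.17, 2.65, 1.71 and 1.59. In that setting edgeR called 0 of the 10 genes in both comparisons of SAP. It called 0% of all genes for SAP against control and 0.00644% for JZL184 against SAP. Leaving out any 1 library gave 2.17 to 2.61 for Nfkbia, 2.37 to 3.02 for Tnfaip3, 1.63 to 1.84 for Birc3 and 1.54 to 1.99 for Bcl3. Without JZL184 1 edgeR called these 4 genes, beside 2.22% of all genes called higher.

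The rest of the pathway was read from lists of its parts. Of 32 inflammatory target genes, most of them cytokines, chemokines, adhesion molecules and antioxidant or antiapoptotic genes, 31 were tested for JZL184 against SAP and 30 were higher. The unadjusted p was under 0.05 for 19 higher genes, beside 10.3% of all genes. It was also under 0.05 for 1 lower gene, Ccl5, a chemokine of T cells, beside 11.1%. By edgeR 0 was called, and by DESeq2 18 were called higher, beside 3.57% of all genes, and 0 lower. The median log2 difference of the list was 1.79, beside -0.05 for all genes. Cxcl1, a chemokine that draws neutrophils, went from 21.1 ± 12.5 FPKM in SAP to 339 ± 86.2 FPKM in JZL184 (n = 4 each; log2 difference 4.18, SE 0.54, edgeR adjusted p = 0.0604). Sele, the endothelial adhesion molecule E-selectin, differed by 3.43 (SE 0.60, adjusted p = 0.0693). Csf3, the granulocyte growth factor, had 0.33 FPKM in SAP and 5.89 FPKM in JZL184 (log2 difference 4.35, SE 0.89, adjusted p = 0.0851). Its SAP level rests on few reads, at 89, 3, 31 and 3 in SAP 1 to 4.

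Against control, edgeR called 11 of the 31 targets higher in JZL184, beside 1.02% of all genes, and 0 lower. The 11 were Csf3, Ccl2, Cxcl1, Selp, Lcn2, Cxcl2, Sele, Il1a, Sod2, Ier3 and Il6. DESeq2 called 15 higher, beside 5.81% of all genes, and the median log2 difference was 1.78, also with Csf3, which had at most 3 reads over the control libraries, set to the bound that 3 reads allow. Csf3 had 1, 0 and 1 reads in the control libraries and 430, 554, 637 and 341 reads in JZL184 1 to 4 (edgeR adjusted p = 0.00224). Ccl2, a chemokine for monocytes, rose from 3.87 to 64.7 FPKM (log2 4.04, SE 0.43, adjusted p = 0.0112), and Cxcl1 rose from 2.45 to 339 FPKM (log2 7.14, SE 0.83, adjusted p = 0.0144). In SAP against control 22 of 32 targets were higher and 10 lower, and the median was 0.44. The unadjusted p was under 0.05 for 10 higher and 0 lower genes, beside 5.69% and 3.4% of all genes. By edgeR 0 of the targets was called, and by DESeq2 6 were called higher, beside 0.861% of all genes. Lcn2, an antimicrobial protein that binds iron carriers, had 2.54 FPKM in control and 64.4 FPKM in SAP (log2 4.51, SE 0.64, edgeR adjusted p = 0.15, DESeq2 adjusted p = 1.06e-12). Ccl2 differed by 2.52 (edgeR adjusted p = 0.459, DESeq2 adjusted p = 0.0157) and Selp, the adhesion molecule P-selectin, by 2.90 (edgeR adjusted p = 0.459, DESeq2 adjusted p = 0.0352).

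Of 12 other IκB proteins and feedback inhibitors, 10 were higher in JZL184 than in SAP, with a median log2 difference of 0.55. The unadjusted p was under 0.05 for 4 higher and 0 lower genes, beside 10.3% and 11.1% of all genes. Zc3h12a, an RNase that degrades cytokine transcripts, had 11 ± 2.84 FPKM in SAP and 86.7 ± 47.4 FPKM in JZL184 (n = 4 each; log2 difference 3.20, SE 0.56, adjusted p = 0.0693). Otulin, a deubiquitinase of linear ubiquitin chains, and Nfkbie, which encodes IκBε, differed by 0.56 and 0.73 (adjusted p = 0.178 and 0.181). Against control 11 of the 12 were higher and edgeR called 1 higher, Tnip3, beside 1.02% of all genes. Tnip3, a partner of the Tnfaip3 protein, had a low mean level in control, at 0.2175 FPKM. It rose by 2.54 on the log2 scale (adjusted p = 0.0481). Tank and Zc3h12a differed by 1.85 (adjusted p = 0.0671) and 2.76 (adjusted p = 0.0811). In SAP against control 5 were higher and 7 lower, with a median of -0.24. At an unadjusted p under 0.05 there were 0 genes, beside 9.09% of all genes. The smallest p-values there were those of Tank, N4bp1 and Nfkbib, at 1.57, 0.88 and -0.94 on the log2 scale (adjusted p = 0.459 to 0.461).

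Of 32 kinases and adaptors upstream of NF-κB, 19 were higher and 13 lower in JZL184 than in SAP, with a median of 0.14. The unadjusted p was under 0.05 for 5 higher and 2 lower genes, beside 10.3% and 11.1% of all genes. DESeq2 called 2 higher and 1 lower, beside 3.57% and 3.41%. The 3 with the smallest p were Card9, Map3k8 and Irak3. Card9, an adaptor of fungal recognition in myeloid cells, had 6.57 ± 2.54 FPKM in SAP and 1.61 ± 0.391 FPKM in JZL184 (n = 4 each; log2 difference -1.89, SE 0.39, edgeR adjusted p = 0.0851, DESeq2 adjusted p = 0.000622). Map3k8, a kinase that joins NF-κB to the MAP kinase cascade, differed by 2.50 (SE 0.55, adjusted p = 0.0851), and Irak3, an inhibitory member of the kinases of Toll-like receptors, by 1.07 (SE 0.31, adjusted p = 0.123). Against control Card9 fell from 18.3 ± 3.87 FPKM (n = 2) by 3.54 on the log2 scale (SE 0.34, adjusted p = 0.0085) and Irak3 rose by 2.06 (adjusted p = 0.0357). These were the calls of edgeR in this list, beside 1.14% of all genes called lower and 1.02% higher. DESeq2 called 5 higher and 2 lower against control, beside 5.81% and 4.99% of all genes. The unadjusted p was under 0.05 for 9 higher and 6 lower genes, beside 13.8% and 12.5%. Map3k8 differed by 3.48 (adjusted p = 0.0631). In SAP against control 20 were higher and 12 lower, with a median of 0.29. At an unadjusted p under 0.05 there were 2 genes in each direction, beside 5.69% of all genes higher and 3.4% lower. Card9, Irak3 and Rbck1 differed by -1.63, 1.02 and -0.96 (adjusted p = 0.459 for each).

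Of 12 ligands, receptors and other genes of the alternative pathway, 10 were higher in JZL184 than in SAP, with a median of 0.88. At an unadjusted p under 0.05 there were 4 higher and 0 lower genes, beside 10.3% and 11.1% of all genes. The 3 with the smallest p were Cxcl13, a chemokine for B cells, at 1.36 (adjusted p = 0.108), Ltb, a lymphotoxin chain, at 1.45 (adjusted p = 0.189), and its receptor Ltbr at 1.04 (adjusted p = 0.2). Against control edgeR called 1 higher, Cxcl13, beside 1.02% of all genes. Cxcl13 rose by 1.77 (adjusted p = 0.0476), and the median of the list was 0.51. Tnfsf11 and Tnfrsf11a, a ligand and its receptor, differed by 1.75 (adjusted p = 0.198) and 0.80 (adjusted p = 0.206). In SAP against control 5 were higher and 7 lower, with a median of -0.33. At an unadjusted p under 0.05 there were 0 genes, beside 9.09% of all genes. Tnfrsf13c, Ltb and Lta differed by -1.10, -0.92 and -0.97 (adjusted p = 0.459 to 0.48).

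**Figure D4:**
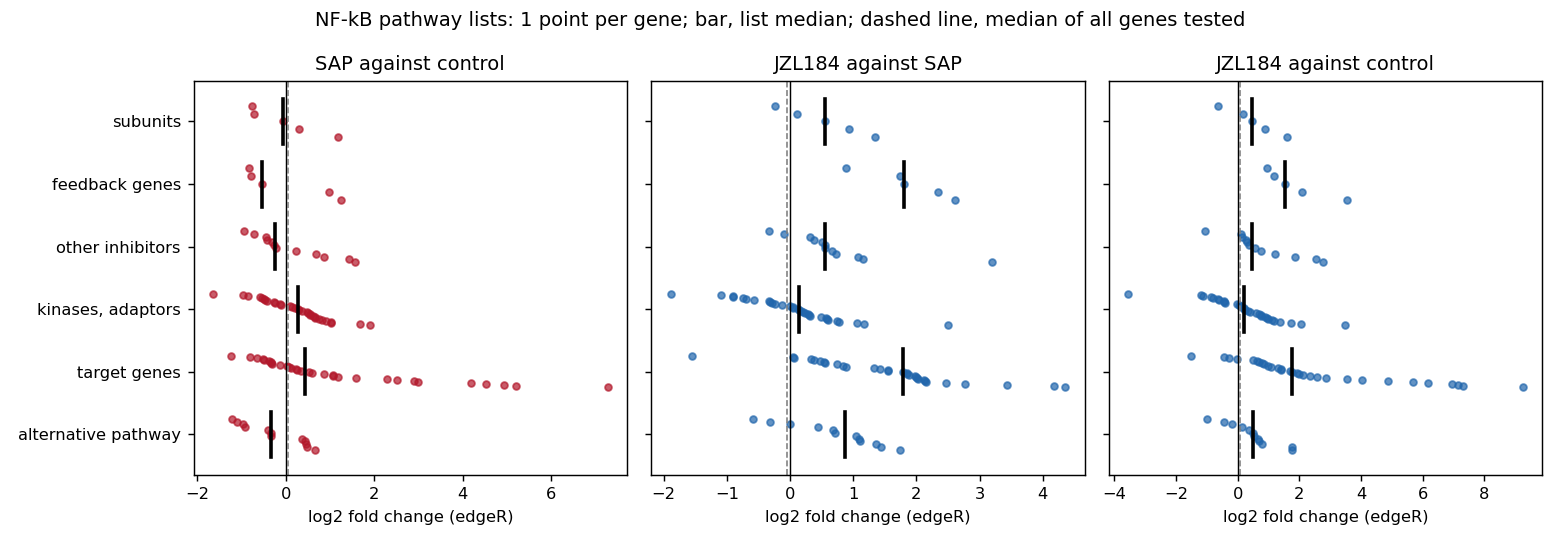
Log2 fold change by edgeR of every tested gene of the subunits, the feedback genes and the 4 pathway lists in the 3 comparisons, with the median of each list as a bar. For JZL184 against SAP the median of the target genes is 1.79, against 0.14 for the kinases and adaptors.

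Levels of cell type markers also differed between the groups, and their part in the results was not tested. The summed FPKM of 12 epithelial markers was 27453.5 to 28288.6 in control, 10530.4 to 21140.9 in SAP and 8828.89 to 17698.2 in JZL184. Control was thus above all other libraries, and SAP and JZL184 overlapped. The sum of 10 neutrophil markers was 1.06 to 2.56 in control, with Elane, Cxcr2 and Fpr1 at 0 in all its libraries, 8.40 to 80.6 in SAP and 12.95 to 250.71 in JZL184. All libraries of rats with SAP were above control, and SAP and JZL184 overlapped.

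Between SAP and JZL184 the ranges of the marker sums overlapped for most cell types, but single markers differed within lists whose sums overlapped. Of the 8 fibroblast markers 7 were lower in JZL184, with a median log2 difference of -1.23 beside -0.05 for all genes. At an unadjusted p under 0.05, 5 were lower, beside 11.1% of all genes. DESeq2 also called 5 lower, beside 3.41%, while edgeR called 0. Of the 11 B cell markers 10 were higher, with a median of 0.74. At an unadjusted p under 0.05, 4 were higher, beside 10.3% of all genes, and both edgeR and DESeq2 called 0. All 7 tested dendritic cell markers were lower, with a median of -0.79. At an unadjusted p under 0.05, 3 were lower, beside 11.1% of all genes, and DESeq2 called 2 lower, beside 3.41%. The sum of the 8 dendritic cell markers was 33.92 to 55.4 FPKM in SAP and 18.33 to 29.91 in JZL184, without overlap and lower in JZL184, with Cd209 at 0 in both groups, and 47.55 to 83.21 in control. That of the 10 T cell markers was 146.15 to 169.41 in control, 55.54 to 166.72 in SAP and 101.91 to 133.53 in JZL184. For the 11 B cell markers it was 91.52 to 108.61, 17.09 to 84.46 and 57.71 to 139.78, for the 7 plasma cell markers 334.14 to 349.51, 268.57 to 455.6 and 202.75 to 274.79, and for the 10 macrophage markers 351.25 to 404.6, 167.25 to 445.49 and 109.24 to 371.05, in the same order. The sums of the 8 endothelial markers were 68.4 to 75.12, 62.83 to 102.31 and 43.08 to 100.68, those of the 8 fibroblast markers 82.35 to 105.73, 78.3 to 172.74 and 52.55 to 87.28, and those of the 8 smooth muscle markers 2189.05 to 2516.61, 931.41 to 2200.91 and 452.12 to 2695.9. The summed target genes were at 312.77 to 356.73 FPKM in control, 329.73 to 628 in SAP and 952.77 to 2054.26 in JZL184.

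**Figure D5:**
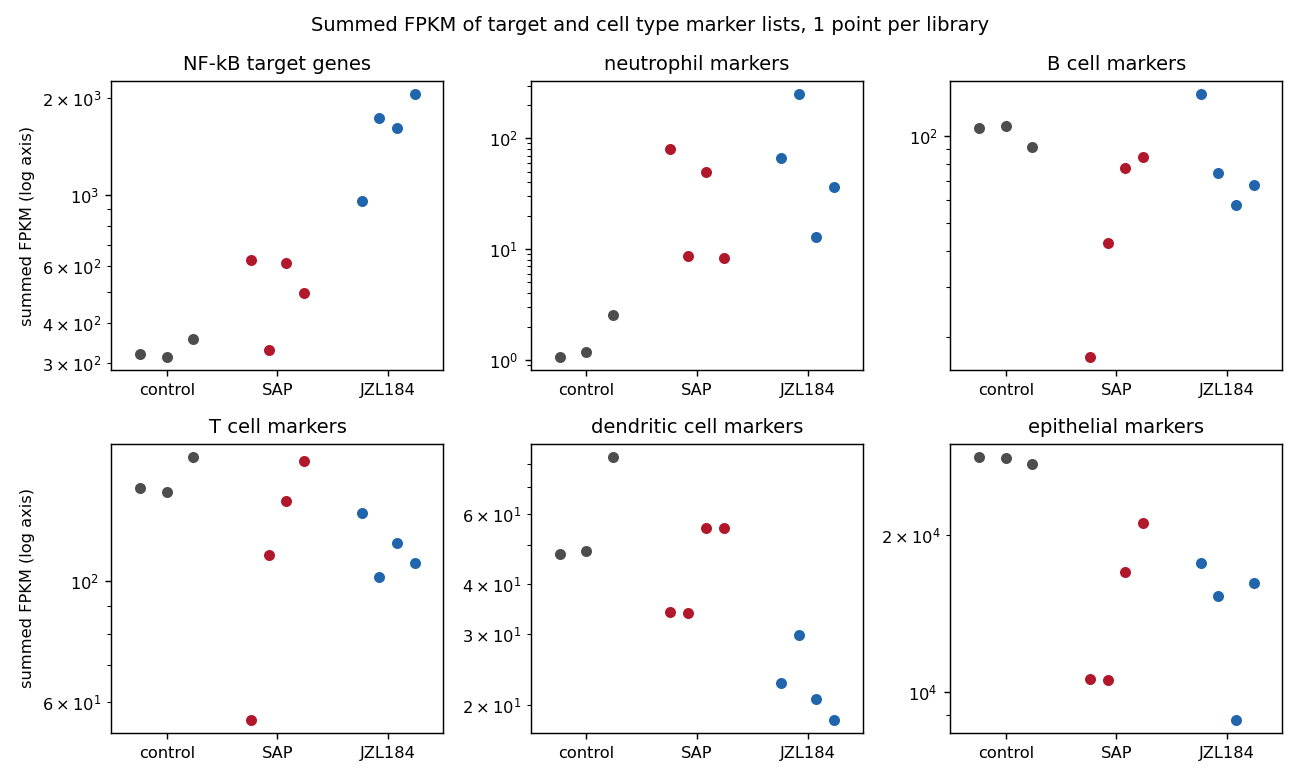
Summed FPKM of the target genes and of markers of 5 cell types in each library, on a log axis. The JZL184 libraries stand above SAP for the target genes and below SAP for the dendritic cell markers, and overlap with SAP for the neutrophil, B cell, T cell and epithelial markers.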

How the data were processed

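Ileum mRNA of 11 libraries was sequenced as stranded paired reads. The authors trimmed reads with FASTX-Toolkit and aligned them with HISAT2 to mRatBN7.2. Neither the counting tool nor the annotation is given in the sources used here. The deposited tables hold read counts per gene, not normalized, and FPKM per gene made by the authors, which divide by gene length and mapped reads.

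From the read counts, edgeR 4.0.16 (R 4.3.3) computed TMM scaling, filterByExpr with a minimum count of 10, and glmQLFit and glmQLFTest for each pair of groups, with Benjamini-Hochberg adjustment over all genes tested. DESeq2 1.42.0 and limma 3.58.1 (voom with sample quality weights) were run as alternatives, with other scalings, filters, gene length offsets, a replicate block and left-out libraries. Counts of control libraries 1 and 2 were summed and their FPKM averaged. A log2 FPKM was not used, and FPKM served for levels only. Depth was 26341299 to 33847135 reads on genes, and Rel, the scarcest of the 10 genes, had 57 to 437 reads. The fits were tested on simulated data.

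All 10 genes were named in every comparison. Of each pathway list the 3 tested genes with the smallest unadjusted p were named, and Ccl5 and the genes called by edgeR among the targets were named after their values were seen. The 10 genes and all lists were chosen with earlier results of these data known. Promoters came from RefSeq GRCr8 and were searched on both strands.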

Additional observations from a re-analysis of the deposited data

Results flagged for a closer look

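Rela in JZL184 1 stood apart from the other JZL184 libraries. Its log2 CPM was 4.68 and the nearest of the others was 5.63, a gap of 0.835 of the range of the 4 libraries, which passed Dixon's limit for an outlying value among 4. Chance alone marks about 1 in 20 groups in this way. Each of the 10 genes was screened in SAP and in JZL184, 20 groups in all, and this was the 1 value marked. That is about the number that chance alone gives. In FPKM the same library had 9.99 against 16.06 to 21.44.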

How the results depend on the processing

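Over the alternatives, the 10 genes kept the direction of their difference in 183 of 190 values for SAP against control, 182 of 190 for JZL184 against SAP and 167 of 170 for JZL184 against control. The number of the 10 genes called in SAP against control went from 0 to 7 with SAP 1 and 2 alone, beside 37.2% of all genes. This pair was picked for its likeness in these same counts, so calls with it alone are not a test of the group. In the other comparisons every called gene of the 10 was higher, and the shares that follow are of all genes called higher. For JZL184 against SAP the number went from 0 to 5 with DESeq2 (3.57%), 4 with limma-voom (2.18%) and 1 without a filter on low counts (0.0829%). It was 4 with all 3 groups in 1 fit (0.785%) and 5 with SAP 1 and 2 alone (7.92%). Without JZL184 1 it was 4 (2.22%), and without any other 1 library it was 0 (at most 0.00644%). The median difference was 1.56 with SAP 3 and 4 alone (1.05 to 1.33 without 1 library). For JZL184 against control the number went from 1 to 5 with DESeq2 (5.81%), 6 with limma-voom (8.48%) and 2 without a filter (1.87%). It was 0 with the replicate block and length offsets (0.119%). With control libraries 1 and 2 separate it was 5 in edgeR (10.1%) and 5 in DESeq2 (10.4%). Without JZL184 1 it was 5 (5.47%) and without JZL184 3 it was 2 (2.71%). With either control sample left out, 1 control sample remains. The median log2 difference of the 10 genes was then 0.97 without control libraries 1 and 2, and 1.25 without control 3. The number called was 0 without JZL184 2 (0.0884%) and without JZL184 4 (0.253%). The cause of these moves was not tested. With control libraries 1 and 2 separate, 2 libraries that are elsewhere counted as 1 sample enter as 2. The deviations of same-numbered samples from their group means had correlations of -0.24 to -0.2, -0.4 to 0.11 and -0.11 to 0.01. With so few samples per group, these values cannot show whether the numbers pair the samples. The replicate block gave 0, 0 and 1 called genes, beside 0.917%, 0% and 0.415% of all genes. The sign turned for Rel in SAP against control (-0.20 with length offsets, -0.12 with the block and length offsets, -0.026 with SAP 3 and 4 alone) and for Rela (0.058 with length offsets, 0.042 with the block and length offsets, -0.41 to 0.41 without 1 library). In JZL184 against SAP it turned for Nfkb1 (0.034 with limma-voom, 0.065 with the block and length offsets, 0.77 with SAP 3 and 4 alone, -0.52 to 0.062 without 1 library) and Relb (-0.22 with SAP 3 and 4 alone, -0.075 to 0.24 without 1 library). In JZL184 against control it turned for Nfkb2 (-0.084 with the replicate block, -0.23 with the block and length offsets, -0.15 to 0.53 without 1 library).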

Other observations

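Outside the 10 genes, those whose standardized log2 CPM over the 10 samples lay nearest to the mean profile of the 5 feedback genes, among 11482 genes compared, were Ufm1 (root mean square difference 0.253), Il15ra (0.258) and Nupl2 (0.276). Il15ra, a chain of the interleukin-15 receptor, had mean levels of 1.27 FPKM in control, 1.95 FPKM in SAP and 7.37 FPKM in JZL184. Ufm1, a ubiquitin-like modifier, had 33.0, 37.2 and 69.6 FPKM, and Nupl2, a nuclear pore protein, had 1.93, 1.90 and 3.87 FPKM. Nearest to the mean profile of the 5 subunits were RGD1308117 (0.328), Ptpn1 (0.406) and Zmynd19 (0.418). Ptpn1, a tyrosine phosphatase, had 4.48 FPKM in control, 5.16 in SAP and 6.61 in JZL184. These genes were picked for their likeness, so their levels are given without a test.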
